A study of Mus musculus with 9 samples.

Results

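The sites described here are 1018 broad stretches of chromatin in mouse spermatocytes that carried histone H3 trimethylated at lysine 4 (H3K4me3) in wild type, were not listed with trimethylated lysine 36 (H3K36me3), and were absent from the H3K4me3 lists of both Prdm9 catalytic mutants. They were selected on measured values of these lists: intervals of the wild-type H3K4me3 list with a width of 1500 bp or more that shared not 1 bp with the wild-type list of double-marked intervals (H3K4me3 and H3K36me3 together), with the EP H3K4me3 list or with the EK H3K4me3 list. They are 5.52% of the 18427 wild-type intervals and 20.9% of the 4881 intervals at least 1500 bp wide. "Lost" below means only that an interval has no overlapping interval in either mutant list, and "kept" that it has one in at least 1 of them.

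The study used chromatin immunoprecipitation with sequencing (ChIP-seq) on spermatocytes from mice 14 days after birth, in 9 libraries, with 2 H3K4me3 libraries and 1 H3K36me3 library per genotype. The wild type was strain C57BL/6J. EP mice, strain C57BL/6J-Prdm9<em2Kpgn>/Kpgn, were homozygous for a change of glutamate 360 of PRDM9 to proline, and EK mice, strain C57BL/6J-Prdm9<em3Kpgn>/Kpgn, were homozygous for a change of the same glutamate to lysine. No transgene or Cre driver is named, and each genotype is 1 allele; the number of founder lines and of animals per library is not given in the sources used here. Per the labels, 6 of the 9 libraries were earlier data, among them all wild-type and both EP H3K4me3 libraries, 1 of the 2 EK H3K4me3 libraries and no mutant H3K36me3 library. Markers of the cell type could not be read from the lists, which hold only sites known to depend on PRDM9. There is 1 list per genotype and kind, with positions and no score or value per library, so no value below has an error between replicates, the read depth is unknown, and every interval or test covers counting of sites in these lists.

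PRDM9 is a zinc-finger methyltransferase of early meiosis that binds its DNA motif and places both H3K4me3 and H3K36me3 on the flanking nucleosomes, which marks the hotspots where SPO11 later cuts the DNA for recombination. ZCWPW1 is a reader of this pair of marks. H3K4me3 also marks active promoters through other methyltransferases such as the SET1 and MLL complexes, and H3K36me3 is laid by SETD2 over the bodies of transcribed genes. How H3K36me3 of gene bodies was treated when the double-marked lists were made is not given in the sources used here.

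Most of the sites lay within genes. Of the 989 on the 20 chromosomes with RefSeq promoter windows used here (250 bases before to 50 after a gene's annotated start), 7 overlapped one (0.708%), against 182 of 17784 (1.02%) in the whole wild-type list. Of these 7 windows, 5 belong to long non-coding RNA genes and 2 to protein-coding genes, Mmp20, which encodes the tooth enamel protease enamelysin, and Cym, which encodes the milk-clotting protease chymosin. Those windows are printed because they are the protein-coding starts that the broad mark covered, from RefSeq on GRCm38.p6, 5′ to 3′ on the gene's strand, with every CG and every TATAAA in capitals.

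Mmp20 promoter window, chr9:7627981-7628280, plus strand: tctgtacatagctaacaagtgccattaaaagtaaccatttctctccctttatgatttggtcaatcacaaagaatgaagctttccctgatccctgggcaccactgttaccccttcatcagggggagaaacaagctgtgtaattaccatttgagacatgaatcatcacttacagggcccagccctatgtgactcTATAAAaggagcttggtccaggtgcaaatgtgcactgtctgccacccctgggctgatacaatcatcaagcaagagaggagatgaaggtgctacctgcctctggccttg
Cym promoter window, chr3:107221683-107221982, minus strand: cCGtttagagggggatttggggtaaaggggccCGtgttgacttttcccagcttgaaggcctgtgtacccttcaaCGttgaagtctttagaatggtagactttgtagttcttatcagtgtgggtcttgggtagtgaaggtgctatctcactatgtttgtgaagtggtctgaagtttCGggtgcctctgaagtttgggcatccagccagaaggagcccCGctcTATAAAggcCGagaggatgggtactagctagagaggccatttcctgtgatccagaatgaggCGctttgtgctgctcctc

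The Mmp20 window lies wholly inside the site chr9:7627189-7628986 (1798 bp wide) and holds 0 CG, as do 5.43% of all 32851 windows. The Cym window lies wholly inside chr3:107221014-107222735 (1722 bp) and holds 7 CG, which is also the median of all windows. The letters TATAAA, searched on both strands after the windows were seen, occur in 2 of the 7 windows, these 2, and in 13.6% of all windows. A match of letters is a description and shows no bound factor.

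Of the 1005 microRNA hairpins in the RefSeq table, 1 overlaps a site, Mir3061, which runs past the site's end. Mir7675 has mature RNAs in that table, and its hairpin was not used here; both mature RNAs lie inside the site chr12:11299557-11301688 (2132 bp) within Smc6, a gene of the SMC5/6 chromosome maintenance complex. They are printed, with the seed (bases 2 to 8) in capitals, because they are annotated products that lie whole under the mark, at chr12:11299887-11299908 and chr12:11299924-11299944 on the plus strand; no RNA was measured here.

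mmu-miR-7675-5p: cUUACGAAagaaugaagagcaa
mmu-miR-7675-3p: uGUUUCAUuuguucgugacuc

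Each step of the choice can be set against the whole list. In the whole wild-type list 62.6% of intervals had no double-marked interval, 80.1% were absent from the EP list, 82.3% from the EK list and 76.7% from both. Of the 4881 broad intervals, 1374 (28.2%) were not double-marked; 1036 of these were absent from the EP list and 1018 from the EK list as well. The rule used these contrasts, so nothing is read from the shares. The 356 broad H3K4me3-only intervals that were kept overlapped the EP list alone in 215 cases, the EK list alone in 18 and both in 123.

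Among the chosen sites the median width was 1776 bp, the lower quartile was 1612 bp, and the widest measured 5524 bp. They covered 1.89 Mb in all. In the 100 bp just inside the limit, 232 of 889 intervals (26.1%) were H3K4me3-only and lost. In the 100 bp just outside it, the count was 359 of 1042 (34.5%). The median gap from a site to the nearest interval was 150 kb in the EP list and 195 kb in the EK list, with the closest at 0.991 kb and 0.481 kb. For the double-marked lost intervals of the same width it was 259 kb and 307 kb, and for narrower H3K4me3-only lost intervals 225 kb and 261 kb. These gaps are a description, since the rule used both lists. None of the sites overlapped a double-marked interval of either mutant. The rule left little room for such overlap, since those lists also rest on the H3K4me3 libraries of their genotype. Nothing is read from it.

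To see what the sites share that the rule did not use, they were compared with 3 other classes of the same wild-type list, each differing from them in 1 part of the rule. The marking and loss of the nearest interval rest on the rule in part, since that interval can be another site. The classes are 2415 broad double-marked lost sites, 7705 narrower H3K4me3-only lost sites (under 1500 bp) and 356 broad H3K4me3-only kept sites. Each share was set against that of each class by Fisher's exact test (two-sided), and the 27 p-values of 9 features in 3 comparisons were adjusted together (Benjamini-Hochberg, threshold 0.05). Sites of one gene or neighbourhood are not independent, so these p-values describe lists, not mice.

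The broad H3K4me3-only lost sites lay in genes: 846 of 1018 (83.1%, 95% Wilson interval 80.7 to 85.3) overlapped the span of a protein-coding gene, where such spans cover 37.9% of the chromosomes. The share was 44.0% in broad double-marked lost sites, 51.0% in narrower H3K4me3-only lost sites and 54.0% in the whole list. The difference was 39.1 percentage points from the double-marked class (adjusted p = 4.34e-104, Fisher's exact test) and 32.2 points from the narrower class (adjusted p = 3.71e-90); with a width limit 250 bp lower these differences were 24.5 and 21.0 points. Broad H3K4me3-only sites that were kept overlapped genes more often still, 332 of 356 (93.3%), and the difference of -10.2 points also passed (exact test, adjusted p = 2.58e-06). The kept sites were wider, with a median of 2290 bp, and that last difference did not pass among sites of 1500 bp to just under 2000 bp (-6.55 points, exact test, adjusted p = 0.301) or among those of at least 2000 bp (-1.05 points, adjusted p = 0.801). With the limit 250 bp lower it was -18.2 points (exact test, adjusted p = 1.94e-16).

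**Figure D1:**
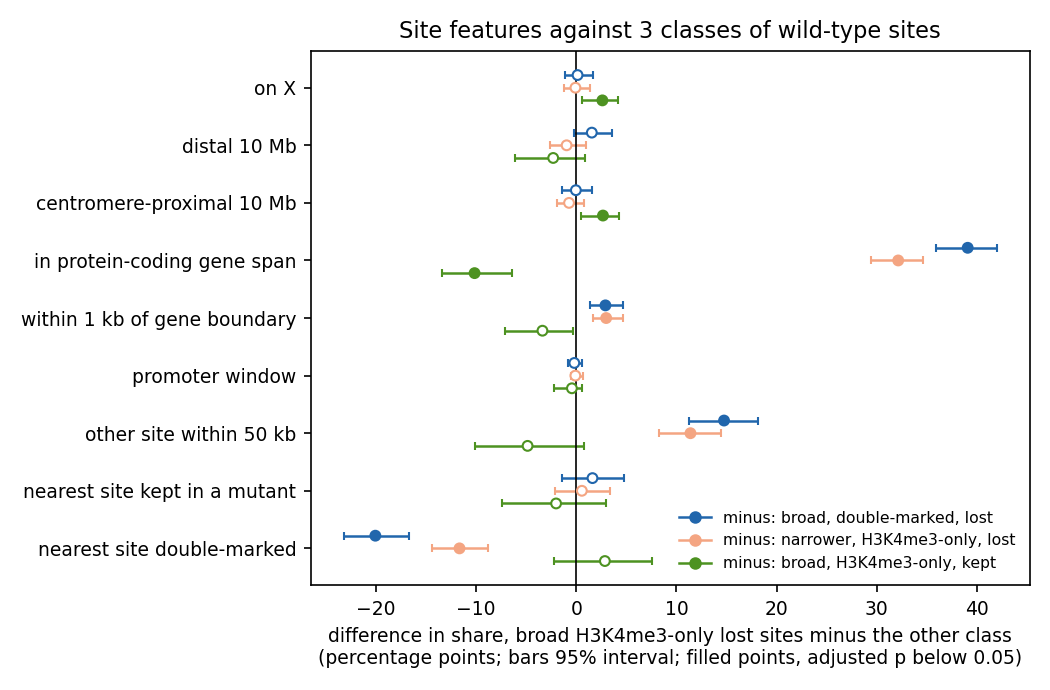
Differences in percentage points between the broad H3K4me3-only lost sites and each of 3 classes (blue, broad double-marked lost; orange, narrower H3K4me3-only lost; green, broad H3K4me3-only kept) for 9 site features. Bars are 95% Newcombe intervals and filled points passed Fisher's exact test after adjustment; overlap with a gene span lies farthest from 0, at 39.1 points against the double-marked class.

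Gene overlap went with width in opposite ways for the 2 kinds of marking. Among H3K4me3-only lost intervals it was 48.8% below 750 bp, 50% from there to 1000 bp, 49.5% in the next 250 bp and 59.2% in the 250 bp just below the limit. Above the limit it was 73.5% in the first 250 bp, 89.0% in the next 250 bp, 94.3% from 2000 bp to just under 2500 bp and 97.5% (39 of 40) from 2500 bp. Double-marked lost intervals had 67.8% gene overlap below 750 bp and between 42.6% and 46.2% in each bin above the limit. H3K4me3-only kept intervals also overlapped genes more often in wider bins, from 55.2% in the narrowest bin to 96.8% in the widest. Below the limit they lay above the H3K4me3-only lost ones in each bin. Their shares there were 60.3% from 750 bp to 1000 bp, 66.7% in the next 250 bp and 70.1% in the 250 bp just below the limit. These shares by width are a description, chosen after the lists were seen.

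**Figure D2:**
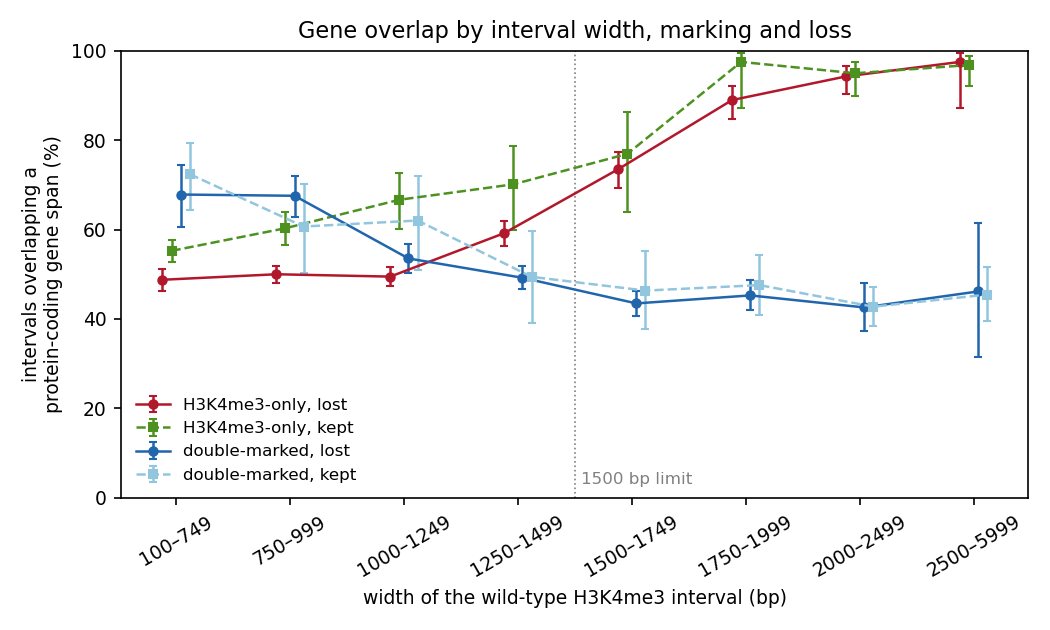
Share of wild-type intervals that overlap a protein-coding gene span, by interval width in bp, for intervals split by marking and by loss; bars are 95% Wilson intervals and the dotted line is the 1500 bp limit. Both H3K4me3-only lines climb to above 95% in the widest bin, while both double-marked lines lie between 42.6% and 47.6% above the limit.

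The steps of the rule can be split by gene overlap. Of the 2729 broad intervals that overlapped a gene, 43.2% were not double-marked, against 9.11% of the 2152 outside genes. Absence from both mutants, over double-marked intervals too, was 70.0% inside genes and 70.8% outside. Among the broad intervals that were not double-marked, absence from both was 846 of 1178 (71.8%) inside genes and 172 of 196 (87.8%) outside. This describes the choice of the sites, and no test was made of it.

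The genes that held the sites were short ones compared with those under the double-marked class. The midpoints of 834 sites fell in 735 protein-coding genes, the longest being taken where several genes overlapped. The median length of the gene, counted once per site and not once per gene, was 80.6 kb. For the other classes it was 229 kb (broad double-marked lost), 121 kb (narrower H3K4me3-only lost) and 81.7 kb (broad H3K4me3-only kept). Of the 834, 498 (59.7%) lay in a gene shorter than 100 kb, against 27.3% of broad double-marked lost sites (adjusted p = 7.85e-45, Fisher's exact test adjusted over 12 tests added after the lists were seen) and 43.2% of narrower sites (adjusted p = 1.93e-17), a difference of 16.5 points that was 9.95 with 1 interval per gene. The kept class had 59.8%, a difference of -0.0439 points (exact test, adjusted p = 1), which was -12.1 points below 2000 bp (adjusted p = 0.0526) and 3.74 points from 2000 bp (adjusted p = 0.613).

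Along the gene, the sites lay toward the end. With the start taken from the annotated strand, 423 of 689 sites (61.4%) had their midpoint past the middle of the gene, which 50.2% of double-marked (adjusted p = 3.43e-05), 53.2% of narrower (adjusted p = 0.000164) and 53.0% of kept sites had (adjusted p = 0.0259, Fisher's exact tests of the added family). Of 10 equal parts of the gene, the first held 3.19% of the sites, the least, and the eighth held 14.1%, the most. Among sites of at least 2000 bp none of the 3 differences passed, at 5.37, 0.262 and -1.06 points, with adjusted p of 0.606, 1 and 0.918. Below 2000 bp the difference from kept sites was 21.3 points, against 8.43 over all widths.

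**Figure D3:**
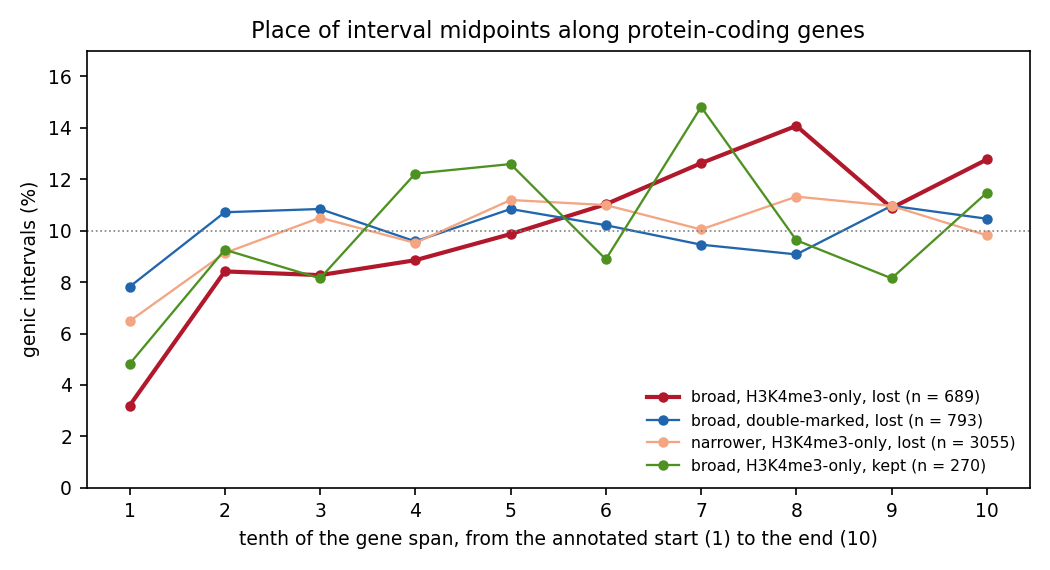
Share of gene-overlapping intervals with their midpoint in each of 10 equal parts of the gene span, from the annotated start to the end, for the broad H3K4me3-only lost sites (thick red line, n = 689) and the 3 other classes; the dotted line is an even spread. The red line goes from 3.19% in the first part to 14.1% in the eighth, and the blue double-marked line stays between 7.82% and 11%.

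Nearness to a gene's edge was less common in absolute terms. At most 1 kb from the start or end of a protein-coding gene lay 60 sites (5.89%), more than the 2.98% of double-marked (exact test, adjusted p = 0.000272) and the 2.91% of narrower sites (adjusted p = 1.09e-05); the kept class had 9.27% (adjusted p = 0.0823). With genes of any biotype the difference from the double-marked class was 2.05 points and no longer passed (exact test, adjusted p = 0.118). Overlap with a promoter window, at 0.708%, did not differ detectably from the other classes, which had 0.901%, 0.797% and 1.14% (exact test, adjusted p = 0.81, 1 and 0.632).

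The 10 widest sites all lay in protein-coding genes. The widest and the next, chr8:47004292-47009815 (5524 bp) and chr8:46997870-47003250 (5381 bp), stood 1.041 kb apart inside Enpp6, which encodes a choline-specific phosphodiesterase. Their nearest EP and EK intervals were 96.3 kb and 96.2 kb from the first of them. A 4249 bp site, chr14:33439884-33444132, lay in Mapk8, the stress-activated kinase JNK1, and a 4237 bp site, chr8:106966982-106971218, in Sntb2, a syntrophin of the dystrophin complex. The Mapk8 site was 489 kb from the nearest EP interval and 488 kb from the nearest EK interval, and the Sntb2 site was 35.0 kb from the nearest EK interval.

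The remaining widest sites fell in genes of varied roles. They were chr16:27450628-27454210 (3583 bp) at Ccdc50, chr11:52237762-52241284 (3523 bp) in Skp1, a core subunit of SCF ubiquitin ligases, chr4:126178717-126182191 (3475 bp) in Thrap3, an RNA processing factor, and chr1:88258609-88261999 (3391 bp) across Mroh2a and Hjurp, the loader of the centromeric histone CENP-A. The last 2 were chr6:89414617-89417981 (3365 bp) in Chchd6, of the mitochondrial cristae, and chr6:136575720-136579024 (3305 bp) in Atf7ip, a partner of the H3K9 methyltransferase SETDB1. The Thrap3 site was the nearest of these to a mutant interval, 10.8 kb from one of EK and 13.8 kb from one of EP. No other shared role is claimed for them, since they were picked by width.

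Of the sites at a gene boundary or promoter window, 65 in all, the 8 widest named by the rule were at Ccdc50, Hjurp, Lrrc42 (chr4:107231557-107234419, 2863 bp), Ube2k (chr5:65595611-65598376, 2766 bp), Tom1l1 and Cox11 (chr11:90643144-90645825, 2682 bp), Cyrib (chr15:63925902-63928326, 2425 bp), Magi3 (chr3:104014077-104016424, 2348 bp) and Pex19 (chr1:172137229-172139568, 2340 bp). Ube2k is a ubiquitin-conjugating enzyme, Cox11 a copper chaperone of cytochrome c oxidase and Pex19 a receptor for peroxisomal membrane proteins. The Cyrib and Pex19 sites lay outside the gene, 0.767 kb and 0.731 kb from its edge. The Pex19 site was 7.26 kb from an EP interval and 7.59 kb from an EK interval, close compared with the medians above.

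Sites shared genes. Of the 735 genes, 658 held 1 site, 60 held 2, 13 held 3, 3 held 4 and 1 held 5. The gene with 5 was Ankrd17, an ankyrin-repeat protein, whose sites of 1537 to 1713 bp ran over chr5:90254161-90344525, 90.4 kb. Runs of 4 with gaps of at most 50 kb lay in Rps6ka5, the kinase MSK1 that phosphorylates histone H3 (chr12:100627561-100691014), and in Crebbp, a histone acetyltransferase (chr16:4091780-4191329). Exoc4, of the exocyst, was the other gene with 4. Sites within a run share a gene and are not independent. Most sites stood alone: 841 had no other such site within 50 kb.

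Some genes held sites of several classes. The genes under the sites shared 46 genes with broad double-marked lost sites (6.26% of the 735 and 5.48% of that class's 839), 316 with narrower H3K4me3-only lost sites (43.0% and 11.7% of 2708), and 54 with the kept class (7.35% and 17.5% of 308). Over all 21887 protein-coding genes, the classes' genes are 3.83%, 12.4% and 1.41%. Of these 21887, 5353 (24.5%) overlapped any wild-type interval, and all genes with a site or an interval of a class are among them. The shares over all genes are therefore lower than shares over genes with an interval would be. Whether the genes overlap more or less than such a baseline was not tested. In the genes that held a site, 227 of 978 other wild-type intervals (23.2%) were double-marked, against 3139 of 8018 (39.1%) in genes without one (adjusted p = 8.24e-23, Fisher's exact test of the added family). Those other intervals were kept in a mutant in 23.6% of cases, against 27.8% (exact test, adjusted p = 0.00829). The first difference, -15.9 points, was -9.47 with the width limit 250 bp lower, and the second, -4.21 points, was -7.28 from 2000 bp; both still passed.

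A few genes of the recombination pathway itself held such intervals. Of 42 listed genes that make, repair or regulate meiotic breaks and the chromosome axis, 11 overlapped any wild-type interval, against 5353 of 21887 protein-coding genes (24.5%) in all, and 2 overlapped one of the sites, against 761 (3.48%). In Atm, the DNA damage kinase that limits meiotic break numbers, the site was chr9:53497405-53499640 (2236 bp), and it was the gene's single listed interval. In Tex11, an X-linked crossover protein, it was chrX:100878102-100880395 (2294 bp), beside 3 further wild-type intervals of 715 to 816 bp, 2 of them double-marked. A broad double-marked lost site overlapped 0 of the 42 genes, and 873 (3.99%) of all. Counts this small carry no test.

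The neighbours of the sites were closer and less often double-marked than those of the other lost classes. Another wild-type interval stood within 50 kb of 694 sites (68.2%), against 53.4% of double-marked (exact test, adjusted p = 5.90e-15) and 56.8% of narrower sites (adjusted p = 1.04e-11); the kept class had 73.0% (adjusted p = 0.19). The differences of 14.8 and 11.4 points became 8.57 and 5.48 with a width limit 250 bp lower, and 8.67 and 3.75 for a neighbour within 10 kb, and passed in each case. The difference from the kept class, -4.86 points, was -9.78 points with that lower limit and passed there (exact test, adjusted p = 0.000241). The median gap was 28.0 kb, against 44.9, 40.3 and 24.0 kb. The nearest interval was double-marked for 235 sites (23.1%), against 43.1% (exact test, adjusted p = 8.96e-29) and 34.7% (adjusted p = 1.64e-13), and 20.2% in the kept class (adjusted p = 0.478); the difference from narrower sites, -11.7 points, was -7.05 with the width limit 250 bp lower. It was kept in a mutant for 23.0%, with 21.4%, 22.4% and 25% in the other classes (adjusted p from 0.478 to 0.81). With the width limit 250 bp lower this difference from the double-marked class was 2.62 points and passed (exact test, adjusted p = 0.0313). For 135 sites the nearest interval was another of the sites, which by the rule was not double-marked and not kept. A nearest interval from the double-marked class was likewise double-marked by definition. The differences in the neighbour's marking are set in part by these definitions, and the size of that part was not tested.

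The differences from the other lost classes in near and double-marked neighbours held inside genes and were not detectable outside them. Within gene spans, the nearest interval was double-marked for 20.3% of sites, against 45.2% of double-marked sites (exact test, adjusted p = 1.82e-29) and 30.6% of narrower sites (adjusted p = 1.20e-08). Outside gene spans the shares were 36.6%, 41.5% and 39.1% (exact test, adjusted p = 0.747 and 0.915). For a neighbour within 50 kb they were 71.7%, 62.4% and 64.5% inside (exact test, adjusted p = 0.000154 and 0.000362) and 50.6%, 46.4% and 48.7% outside (adjusted p = 0.811 and 0.923). Just 172 of the sites lay outside genes, and whether the differences inside and outside genes are unequal was not tested. For 490 sites (48.1%) the nearest interval lay in the same gene, and for 135 it was another of the sites, and so not double-marked by the rule.

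On the X chromosome the sites did not show the high gene overlap that they had on autosomes. Of 38 X-linked sites, 13 (34.2%, 95% Wilson interval 21.2 to 50.1) had their midpoint in a protein-coding gene, against 821 of 979 (83.9%) on autosomes (adjusted p = 1.07e-10, Fisher's exact test of the added family), a difference of -49.7 points that was -30.4 with the width limit 250 bp lower. Broad double-marked lost sites had 44.8% on X and 43.1% on autosomes (exact test, adjusted p = 0.901), and narrower sites 38.1% and 50.9% (adjusted p = 3.43e-05). The X effect was larger in the broad H3K4me3-only lost sites than in either: the ratio of odds ratios was 0.0935 against the double-marked class (logistic interaction over n = 3431 sites, Wald p = 1.17e-08) and 0.169 against the narrower class (n = 8717, p = 1.87e-06). The kept class had 75% (3 of 4) on X and 92.3% on autosomes (exact test, adjusted p = 0.337), and no interaction was fitted against it. Whether the classes differ on X alone was not tested. Protein-coding spans cover 26.8% of X and 40% of the autosomes. The widest X-linked site, chrX:161168715-161171468 (2754 bp), lay in Scml2, a Polycomb protein of male germ cells.

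**Figure D4:**
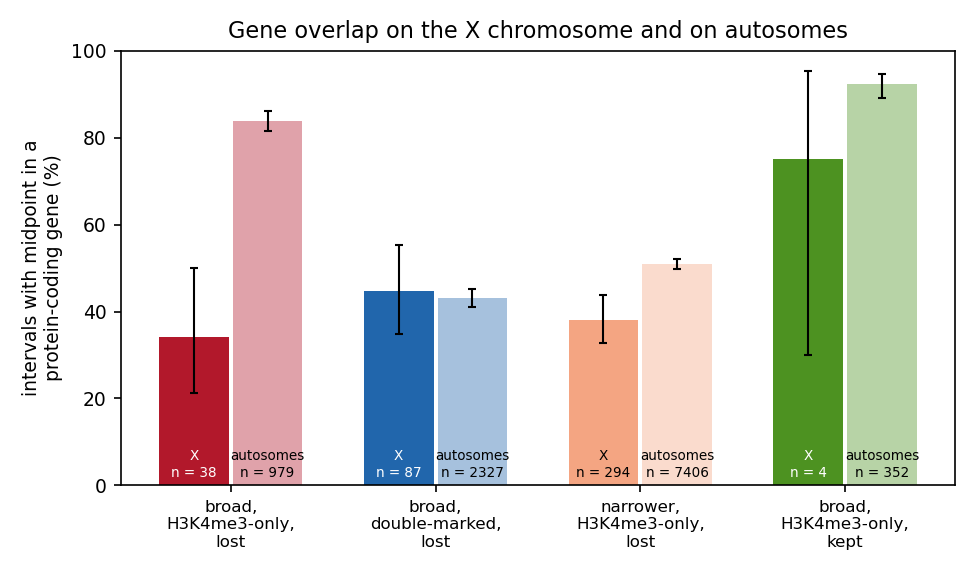
Share of intervals with their midpoint in a protein-coding gene on the X chromosome (dark bars) and on autosomes (pale bars), for the broad H3K4me3-only lost sites and the 3 other classes, with 95% Wilson intervals and the number of intervals in each bar. The red bars stand at 34.2% and 83.9%, and the double-marked bars at 44.8% and 43.1%.

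The X-linked share itself was 3.73%, close to 3.60% in double-marked and 3.82% in narrower sites (exact test, adjusted p = 0.948 and 1), with intervals of the difference of -1.16 to 1.64 and -1.18 to 1.33 points. It was 1.12% (4 of 356) in the kept class (exact test, adjusted p = 0.0315), a difference that did not pass below 2000 bp (4.16 points, adjusted p = 0.108) or from 2000 bp (0.894 points, adjusted p = 0.722). With the limit 250 bp lower the difference from the double-marked class was 1.27 points and passed (exact test, adjusted p = 0.0257). Split by gene overlap it went both ways against the double-marked class: 1.65% against 3.86% inside genes (exact test, adjusted p = 0.0292), and 14.0% (24 of 172) against 3.4% outside (adjusted p = 3.77e-06).

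Over the other chromosomes the sites were 2.73% to 6.96% of each autosome's wild-type intervals, and chromosome 10 was the one of 21 that passed. There 25 of 917 intervals were broad, H3K4me3-only and lost (2.73%), against 5.67% elsewhere (adjusted p = 0.000882, two-sided Fisher's exact test adjusted over 21 chromosomes). Broad intervals of any kind were also fewer on chromosome 10, 21.5% against 26.5% of the whole list, and their part in the result was not tested. With a limit 250 bp lower the difference was -3.24 points and missed the threshold (exact test, adjusted p = 0.0548), and with 2000 bp it was -0.848 points (adjusted p = 0.559), against -2.94 points with 1500 bp. Chromosome 2 had the highest autosomal share, 6.96% (exact test, adjusted p = 0.145).

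**Figure D5:**
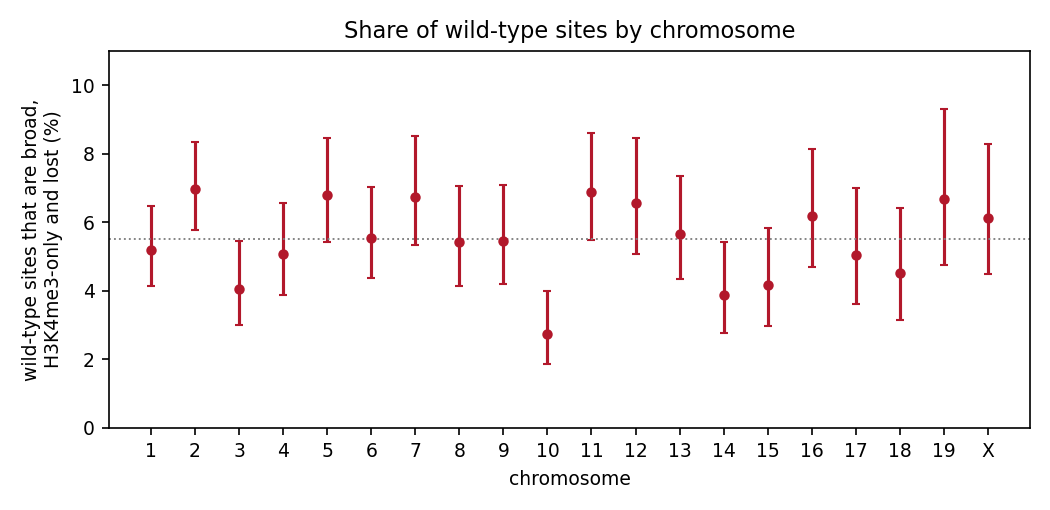
Share of each chromosome's wild-type H3K4me3 intervals that were broad, H3K4me3-only and lost in both mutants, in percent, with 95% Wilson intervals; the dotted line is the share of the whole list, 5.52%. Chromosome 10 is the lowest, at 2.73%; the Y chromosome, with 8 intervals, is left out.

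At the chromosome ends, 1 of 6 differences passed. The distal 10 Mb of the autosomes held 72 of 979 sites (7.35%), against 5.80%, 8.32% and 9.66% in the double-marked, narrower and kept classes (exact test, adjusted p = 0.19, 0.483 and 0.306). The distal difference from the double-marked class passed with the width limit 250 bp lower (1.71 points, exact test, adjusted p = 0.0257), and that from the kept class passed with a window of 5 Mb (-3.4 points, adjusted p = 0.0345). The 10 Mb next to the centromere held 4.09%, against 4.13%, 4.81% and 1.42%, of which the difference from the kept class passed (2.67 points, exact test, adjusted p = 0.0385). That call held in 4 of 10 alternatives. It was lost when the window was 5 Mb (0.907 points, exact test, adjusted p = 0.531) or 20 Mb (1.77 points, adjusted p = 0.558). It was also lost among sites of at least 2000 bp (3.37 points, exact test, adjusted p = 0.0849) and below 2000 bp (1.77 points, adjusted p = 0.663). Merging of intervals within 500 bp ended it too (2.18 points, exact test, adjusted p = 0.149).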

How the data were processed

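The authors deposited 6 lists of intervals, an H3K4me3 list and a double-marked list per genotype, which give the chromosome, start and end of each peak in bp and no other value. Per the submitters' processing notes, the build was mm10 and the tools were Trimmomatic, BWA 0.7.9a and MACS 1.4; their roles, thresholds and the pooling of replicates in each list are not given in the sources used here. Per the file that describes the deposited lists, they hold peaks at known PRDM9-dependent sites. The labels give 1 extraction text for all libraries, which names the H3K4me3 antibody only, although 3 libraries carry the H3K36me3 antibody in their own field. The signal tracks were not analysed here.

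Starts were read as 0-based and are printed 1-based. Overlap means 1 bp or more. Genes (21887 protein-coding) and promoter windows came from RefSeq tables of GRCm38.p6, whose chromosomes are those of mm10; promoter windows cover 20 chromosomes, chromosome 18 not being used for them. Exons were not used here. The members and lists were chosen with earlier results of these data known, and the 12 added tests after the lists were seen. Sites named are the 10 widest, the widest 8 at a gene boundary or promoter window, the longest 3 runs and the sites in a list of 42 recombination genes (Atm and Tex11); Exoc4, Scml2, Mir3061, Mir7675, Mmp20, Cym and Smc6 were named after their values were seen. Fisher's exact tests used SciPy 1.17.1 and logistic interactions statsmodels 0.14.6, under Python 3.11.15 with pandas 2.3.3. The tests were checked on simulated lists. The planned base composition of site centres was not run, since no genome of the build was used here. Alternatives changed the overlap, width limit, merging of neighbours, chromosomes, gene set and windows.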

Additional observations from a re-analysis of the deposited data

How the results depend on the processing

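No paired analysis was possible because there is 1 list per genotype and kind, with no value per library, and for the same reason no replicate could be left out. Depth, signal and peak strength cannot be examined in lists of positions. Of the 21 results that passed their test, 168 of 190 alternative values kept direction and call, 20 lost the call and 2 changed direction. Differences below are the broad H3K4me3-only lost sites minus a class, in percentage points, and the cause of each change was not tested.

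With a limit 250 bp lower there were 2155 sites, no chromosome passed (Fisher's exact test; chromosome 10 at -3.24), and calls were gained for X linkage against double-marked (1.27), distal ends against double-marked (1.71), kept neighbours against double-marked (2.62), and, against kept sites, gene boundaries (-3.42) and near neighbours (-9.78); X linkage (0.738) and promoters (0.171) against narrower sites changed sign. With 2000 bp there were 249 sites, no chromosome passed (chromosome 10 at -0.848), and calls were lost against kept sites for X linkage (0.894), proximal ends (3.37) and gene overlap (-1.05), and for midpoints past the middle of the gene against double-marked (5.37) and narrower sites (0.262). Signs changed at 2000 bp against double-marked sites for X linkage (-2.17), proximal ends (1.22), promoters (0.473) and kept neighbours (-3.07), against narrower sites for promoters (0.885) and kept neighbours (-1.24), and against kept sites for promoters (1.26), double-marked neighbours (-1.18), genes under 100 kb (3.74) and midpoints past the middle (-1.06).

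Between 1500 bp and 2000 bp, calls against kept sites were lost for X linkage (4.16), proximal ends (1.77) and gene overlap (-6.55), and signs changed for X linkage against narrower (0.346) and near neighbours against kept sites (0.489); against kept sites, genes under 100 kb stood at -12.1 and midpoints past the middle at 21.3. Merging within 500 bp ended the proximal call against kept sites (2.18) and turned X linkage against narrower (0.00875) and genes under 100 kb against kept sites (1.01). That last difference, near 0 over all widths, also turned with a 500 bp tolerance (0.209), autosomes only (0.60), any biotype (0.576) and 1 interval per gene (2.74). Any biotype also ended the boundary call against double-marked sites (2.05) and turned the X minus autosome gene share of that class (-4.79). Ends of 5 Mb gave a distal call against kept sites (-3.40), ended the proximal one (0.907) and turned the proximal differences from double-marked (0.969) and narrower sites (0.517); ends of 20 Mb ended the proximal call too (1.77). Counting only sites with a neighbour within 50 kb turned kept neighbours against double-marked (-2.09) and narrower sites (-1.19).

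Inside genes, X linkage turned and passed against double-marked sites (-2.20), lost its call against kept sites (0.751), and kept neighbours turned against narrower sites (-0.0965). Outside genes, X linkage gained calls against double-marked (10.6) and, with a change of sign, narrower sites (9.14) and lost that against kept sites (9.79); near neighbours lost theirs (4.21 and 1.86), as did double-marked neighbours (-4.87 and -2.43), and distal ends turned against narrower (1.65) and kept sites (5.18), as did proximal ends against kept sites (-1.63). Gene overlap against double-marked and narrower sites kept its direction and call in each alternative run, at 24.5 and 21.0 with the lower width limit.

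Other called differences kept their call and moved by over 1.5 times. With the lower width limit these were gene overlap against kept sites (-18.2), near neighbours against double-marked (8.57) and narrower sites (5.48), double-marked neighbours against narrower sites (-7.05) the X minus autosome gene share (-30.4) and the double-marked share of other intervals in genes with a site minus genes without (-9.47). At 2000 bp they were the kept share of those other intervals (-7.28) and gene boundaries against double-marked (5) and narrower sites (5.33), which also moved with 5 kb (9.18 and 6.63). A neighbour within 10 kb gave 8.67 and 3.75, sites inside genes gave near-neighbour differences of 9.38 and 7.23, and 1 interval per gene gave 9.95 for genes under 100 kb against narrower sites.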
